A study of Homo sapiens with 36 samples.

Results

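The interaction of culture medium and insulin was examined in HepG2-IGF1R-KO cells. HepG2 is an established liver cancer line of human origin, and in this derivative the IGF-1 receptor gene has been knocked out, per the labels. Their RNA was sequenced. All 36 libraries of the series enter, 9 in each of 4 groups taken from the sample titles. For each gene the quantity of interest was the insulin effect in insulin-resistant medium minus the insulin effect in normal medium, called the difference of insulin effects below. Genes for which it passed the test were then sorted by whether the insulin-resistant medium alone had already moved them, and by whether the response was lost or reversed.

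Resistant insulin libraries came from cells kept for 72 h in a medium that held 20 mM glucose, 1 nM insulin and, at 0.5 mM, oleic, palmitic and linoleic acids, followed by 18 h of stimulation with human insulin at 3 nM. Resistant untreated libraries came from cells in the same medium without the stimulation. Normal insulin libraries came from cells in normal medium given the same 18 h stimulation, and normal untreated libraries from cells in normal medium left untreated. All 4 groups carry the receptor knockout, so there is no unedited control, and the labels do not say whether the line is a single clone. They also do not say whether the 1 nM insulin was removed before resistant untreated cells were harvested, so the insulin effect in that medium may set 3 nM against a remaining 1 nM.

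In hepatocytes insulin binds its receptor and activates the kinase AKT. AKT keeps the transcription factor FOXO1 out of the nucleus, which lowers genes of glucose output such as G6PC1, and through mTORC1 and SREBP-1c it raises genes of protein synthesis and of fatty acid synthesis. Long exposure to insulin, fatty acids and high glucose is a common way to make cultured liver cells respond less to insulin. Secretory cells that make more protein also need more chaperones in the endoplasmic reticulum, where secreted proteins fold.

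Library totals were 60256672 to 73259111 counts in resistant insulin, 26613307 to 101823511 in resistant untreated, 30614527 to 111911225 in normal insulin and 59933972 to 116763907 in normal untreated libraries. Levels of genes are given in CPM, each library's counts scaled to a common total after TMM normalisation, except for the markers in this paragraph and their sums, which are CPM without TMM scaling. Transcripts of the hepatocyte list, such as ALB at 3133 to 12854 CPM, were present in every library. IGF1R was transcribed at 77.8 to 134 CPM, which does not check the edit. Stromal transcripts set the libraries apart. The summed level of 24 stromal markers was 27858 to 87378 CPM in 30 libraries. It was 341 to 358 CPM in resistant untreated replicates 1 to 3, where 13 of the 24 were under 1 CPM and COL1A2, DCN, POSTN, THY1 and PDGFRA were at 0, and 256 to 308 CPM in normal insulin replicates 4 to 6, where 14 of the 24 were under 1 CPM and DCN and POSTN were at 0. These 6 libraries are called stroma-free here. Among the other 30, FN1, which encodes fibronectin, was at 30773 to 37332 CPM in 12 (6 resistant insulin, 3 resistant untreated and 3 normal untreated libraries) and at 11438 to 16635 CPM in 18. The summed hepatocyte list was 39394 to 41085 CPM in the stroma-free resistant untreated libraries against 14265 to 26148 CPM in the other resistant untreated ones. Its range was 42521 to 44833 CPM in the stroma-free normal insulin libraries against 16082 to 28549 CPM in the other normal insulin ones. All samples are labelled as 1 hepatoma line. Stromal transcripts such as COL1A1, at 8071 to 31870 CPM in the 30 libraries and 0.784 to 1.70 CPM in the stroma-free ones, are not textbook products of such a line, and the labels do not say whether cultures or libraries were combined. Where they came from was not tested, and they differ between the groups of every contrast below. Resistant untreated and normal insulin, the groups with stroma-free libraries, both enter the difference of insulin effects with a minus sign. Resistant insulin, with the most FN1-high libraries, enters it with a plus sign. Stromal content therefore lies along that contrast itself, and its part in the counts below was not tested. The main results are given with all 36 libraries and for the 30 libraries without the stroma-free ones, and where it matters for the 18 that also exclude the FN1-high ones. In bulk RNA, fewer cells of a type and less RNA per cell cannot be told apart.

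Taking each library as independent, the fits called a smaller response to insulin in insulin-resistant medium in a large share of genes. Stroma-free and FN1-high libraries came in runs of replicate numbers within a group, so libraries of a run may not be independent. Summing each run to 1 sample left 1 gene above 0 and 4 below it for the difference of insulin effects. Adding a block for the runs left 0, though power is lower with fewer samples. The gene p-values below also take libraries as independent. With all 36 libraries, 1119 genes had a difference of insulin effects above 0 and 4233 had one below 0 at an edgeR quasi-likelihood adjusted p under 0.05, which is 6.22% and 23.5% of the 17983 genes tested. Without the stroma-free libraries the counts were 2266 (12.4%) and 1709 (9.37%) of 18230 genes, and with 18 libraries 1188 (6.38%) and 2263 (12.2%) of 18622. The split between directions also moved with the scaling. TMM factors averaged over every reference library gave 1815 above (10.1%) and 3303 below 0 (18.4%). Scaling to the hepatocyte list, which put the median difference over all genes at 0.26 on the log2 scale, gave 1025 (5.7%) and 1077 (5.99%).

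In insulin-resistant medium itself no gene (0% of those tested) passed the edgeR test for insulin with 36 or with 30 libraries when batch date was the covariate, while 4490 and 964 genes had an unadjusted p under 0.05. DESeq2 called 89 genes (0.495%) with 36 libraries, and edgeR called 182 raised and 215 lowered genes with 18 libraries (0.977% and 1.15%). Those 18 hold only resistant insulin replicates 1 to 3, of April batches, and resistant untreated replicates 4 to 6, all of 24 May. Every 18-library value of this effect or of the difference thus relies on normal-medium libraries to set batch date apart. The count of 0 depends on the fit. With 36 libraries it was 2674 with a replicate block (14.9%), 4481 with a block for the runs of replicates 1 to 3, 4 to 6 and 7 to 9 in place of batch (24.9%) and 2063 with no batch term (11.5%). Replicates 1 to 3 alone, whose resistant untreated libraries are the stroma-free ones, gave 12091 (66.4%). Replicates 4 to 6 gave 6520 (35.5%) and replicates 7 to 9 gave 0 (0%). Fits of a single run had no batch term. In replicates 4 to 6 the resistant insulin libraries were FN1-high and of April, and the resistant untreated ones were not FN1-high and of 24 May. In replicates 7 to 9 all groups but normal insulin were FN1-high. Values of that run for insulin in normal medium or for the difference therefore also compare FN1 levels. Leaving out 3 libraries of a group at a time gave 0 to 5058, the highest without resistant untreated replicates 7 to 9 (27.6%). In normal medium insulin raised 4484 genes (24.9%) and lowered 1843 (10.2%). Of the genes it raised, 3519 (78.5%) had a called difference opposite to that rise, and of those it lowered, 744 (40.4%) had one opposite to that fall. In 30 libraries the shares were 58.0% of 2802 raised (15.4% of all tested) and 62.9% of 3294 lowered genes (18.1%). No gene raised or lowered in normal medium was called for a larger response in insulin-resistant medium with 36 or 30 libraries, and 5 were with 18 libraries.

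**Figure D1:**
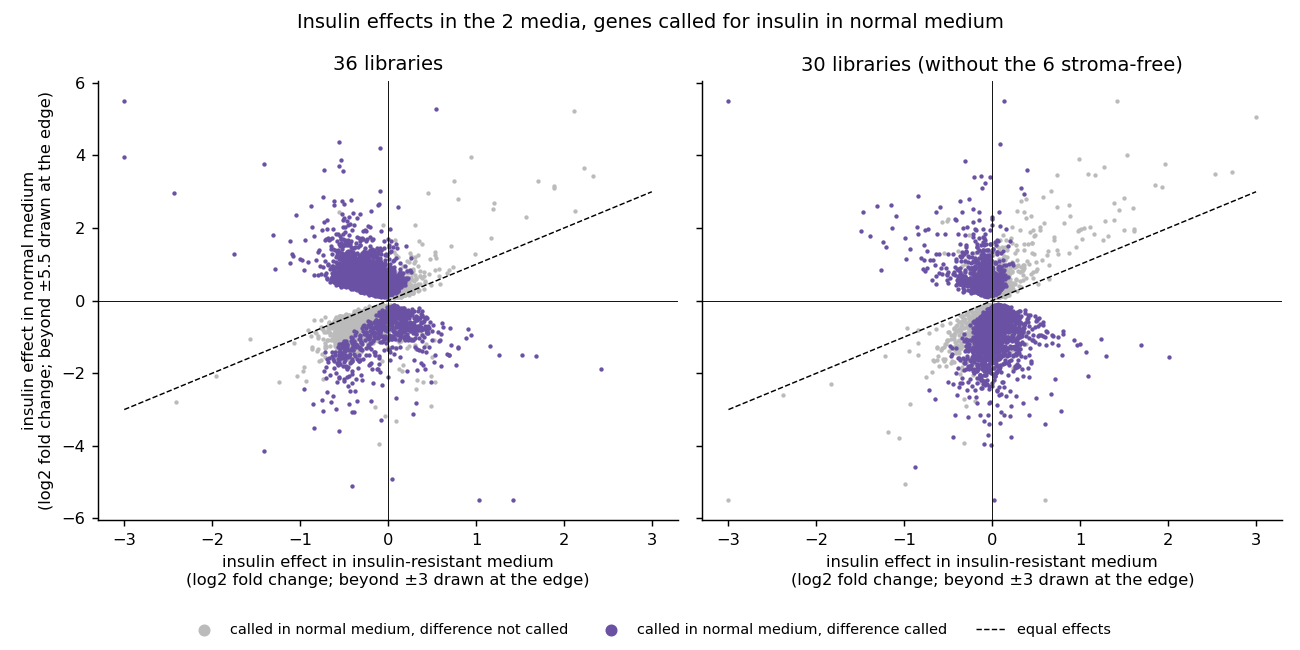
Log2 fold change with insulin in insulin-resistant medium (horizontal axis) against that in normal medium (vertical axis), for genes called for insulin in normal medium, with 36 libraries on the left and 30 on the right. Each point is a gene, purple where the difference of insulin effects was called, and the dashed line marks equal effects. Points beyond the axes are drawn at the edge. Genes raised in normal medium have a median effect of -0.09 in insulin-resistant medium in the 36-library panel and of -0.01 in the 30-library panel.

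The sort of the 5352 called genes (29.8% of those tested) used 4 contrasts that share libraries, so its counts are a description. A response counted as lost where insulin in insulin-resistant medium had less than 0.5 of its log2 effect in normal medium, or an opposite effect with an unadjusted p of 0.05 or more. It counted as reversed where the opposite effect had an unadjusted p under 0.05. With 36 libraries 3071 genes had a lost and 1191 a reversed response, 1 was reduced but kept more than 0.5, and 1089 had no call for insulin in normal medium. Of the lost responses, 691 belonged to genes that the medium alone had already moved in the direction of insulin, 2230 to genes with no call for the medium and 150 to genes that the medium had moved the other way. Of the reversed ones, these numbers were 623, 557 and 11. For comparison, the medium alone raised 13.3% and lowered 8.62% of all genes tested in untreated cells.

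The number of lost responses was of like size in the fits with 30 and 18 libraries, and the number of reversed ones was not. Lost responses in smaller subsets differed more, with 1034 in replicates 1 to 3 and 5796 in replicates 4 to 6. The batches of 11 and 22 April alone gave 399 and 4. Without the stroma-free libraries 3544 responses were lost (1377 in genes already moved, 1920 in genes not moved and 247 in genes moved the other way) and 155 were reversed (88, 65 and 2). Of the 1191 genes reversed with 36 libraries, 43 (3.61%) were reversed with 30, 490 (41.1%) were lost there and 634 (53.2%) were no longer called for the difference. With 18 libraries 2124 responses were lost and 472 reversed, of which 42 were among the 1191. Of the 3071 lost responses, 1431 (46.6%) were also lost with 30 libraries, which is 40.4% of those lost there, and 982 (32.0%) with 18, which is 46.2% of those lost there. Leaving out only resistant untreated replicates 1 to 3 lowered the reversed genes to 91.

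**Figure D2:**
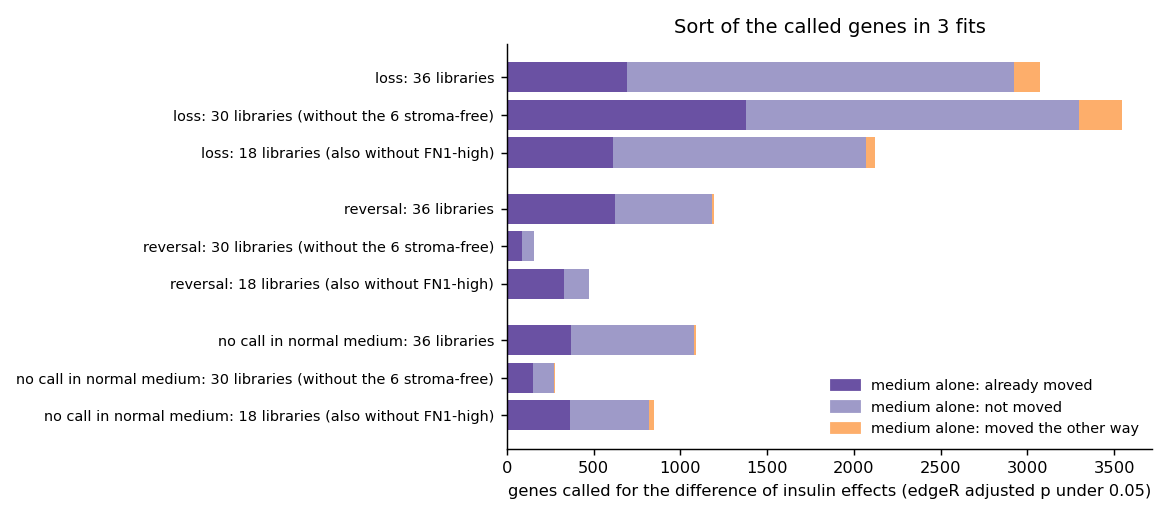
Number of genes called for the difference of insulin effects (horizontal axis) by class of response and fit (vertical axis), with colours for what the medium alone had done in untreated cells. Lost responses number 3071, 3544 and 2124 with 36, 30 and 18 libraries, while reversed ones number 1191, 155 and 472.

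The medians of these classes restate the sort, and insulin in normal medium and the medium alone share the normal untreated libraries, so they are a description only. In lost responses that the medium had already moved, over the 451 genes raised by insulin in normal medium the median log2 effect was -0.12 for insulin in insulin-resistant medium, 0.47 for insulin in normal medium and 0.33 for the medium alone, a median of 76.6% of the insulin effect. Over the 240 lowered ones the medians were -0.07, -0.97 and -0.65, and 75.5%. In the 1799 raised genes with a lost response and no call for the medium, insulin in insulin-resistant medium had a median effect of -0.08, insulin in normal medium 0.44 and the medium 0.04, or 7.72% of the insulin effect. In the 133 raised genes that the medium had moved the other way, the medium had a median effect of -0.24 against 0.37 for insulin in normal medium.

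G6PC1 (ENSG00000131482), the catalytic subunit of glucose-6-phosphatase that releases free glucose, was already near its insulin-stimulated level in insulin-resistant medium. Its lowest, median and highest levels were 0.0837, 0.132 and 0.202 CPM in resistant insulin, 0.0693, 0.185 and 0.474 CPM in resistant untreated, 0.0199, 0.109 and 0.225 CPM in normal insulin and 3.39, 3.95 and 4.62 CPM in normal untreated libraries. Normal untreated libraries did not overlap any other group, and the other 3 groups overlapped one another. Insulin changed it by -0.41 in insulin-resistant medium (adjusted p = 0.424) and by -5.09 in normal medium, and the medium alone by -4.37, all on the log2 scale by edgeR. The difference of insulin effects was 4.68 ± 0.44 (SE, edgeR adjusted p = 1.01e-08), and it was 5.54 with 30 and 5.42 with 18 libraries. The 3 low groups rest on 1 to 17 counts per library, against 198 to 546 counts in normal untreated libraries, so fold changes between them are imprecise.

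The G6PC1 promoter is shown because FOXO1, the factor that insulin keeps out of the nucleus, binds sites with the core TGTTT. RefSeq (build GRCh38.p14) places these 250 bases before the start of G6PC1 at chr17:42900549-42900798 on the + strand, and capitals mark each TGTTT or its reverse complement AAACA.
G6PC1: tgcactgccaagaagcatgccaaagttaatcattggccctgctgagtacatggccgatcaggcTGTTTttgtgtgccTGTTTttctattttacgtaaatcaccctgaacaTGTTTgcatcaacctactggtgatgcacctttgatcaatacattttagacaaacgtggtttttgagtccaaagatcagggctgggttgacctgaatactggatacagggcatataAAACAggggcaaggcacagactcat
They hold 4 matches, between 25 and 187 bases before the start. At least 4 matches were found in 620 of 35116 promoters of the same length (1.77%), and at least 1 in 40.4%. A match is a description of the letters and not evidence of binding.

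FST (ENSG00000134363), the secreted activin antagonist follistatin, also stood highest in normal untreated cells. Its lowest, median and highest levels were 31.7, 33.7 and 40.6 CPM in resistant insulin, 30.8, 40.4 and 50.0 CPM in resistant untreated, 41.4, 52.4 and 73.5 CPM in normal insulin and 147, 206 and 255 CPM in normal untreated libraries. All normal untreated libraries lay above all others, and the medium alone lowered FST more (-2.30 on the log2 scale) than insulin in normal medium did (-1.88). In insulin-resistant medium insulin changed it by -0.18 (edgeR adjusted p = 0.314). The difference was 1.70 ± 0.15 (SE, edgeR adjusted p = 7.53e-09) with 36 libraries, 1.84 with 30 and 1.69 with 18.

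TNFSF10, the death ligand TRAIL, ranged over 0.757 to 1.47 CPM in resistant insulin, 1.04 to 2.74 CPM in resistant untreated, 0.359 to 1.18 CPM in normal insulin and 5.74 to 9.84 CPM in normal untreated libraries. Here too normal untreated libraries lay apart, the only group with a mean over the 3 CPM that naming by class required. The medium alone moved TNFSF10 by -2.28, short of the -3.59 reached with insulin in normal medium, and its median was higher in resistant insulin than in normal insulin libraries. Its difference was 3.03 ± 0.28 (SE, edgeR adjusted p = 8.45e-09), or 3.85 with 30 libraries.

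HP, the haemoglobin-binding plasma protein haptoglobin, was lowered by the medium to an intermediate level. Its lowest, median and highest levels were 9.08, 10.3 and 12.1 CPM in resistant insulin, 9.75, 15.3 and 19.8 CPM in resistant untreated, 2.64, 3.90 and 8.63 CPM in normal insulin and 19.1, 24.2 and 38.4 CPM in normal untreated libraries. No 2 of resistant insulin, normal insulin and normal untreated libraries overlapped, and the difference was 1.89 ± 0.26 (SE, edgeR adjusted p = 1.96e-06), and 2.77 with 30 libraries. HPR, its close paralog and neighbour, had a difference of 2.12, or 3.00 with 30 libraries, and how the authors' counting split reads between HP and HPR is uncertain. BCL6, a transcriptional repressor among FOXO1 targets, was lowered by the medium to 25.8 to 28.9 CPM in resistant untreated against 45.8 to 62.0 CPM in normal untreated libraries, and its difference was 0.48 (edgeR adjusted p = 7.28e-05), or 0.71 with 30 libraries.

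**Figure D3:**
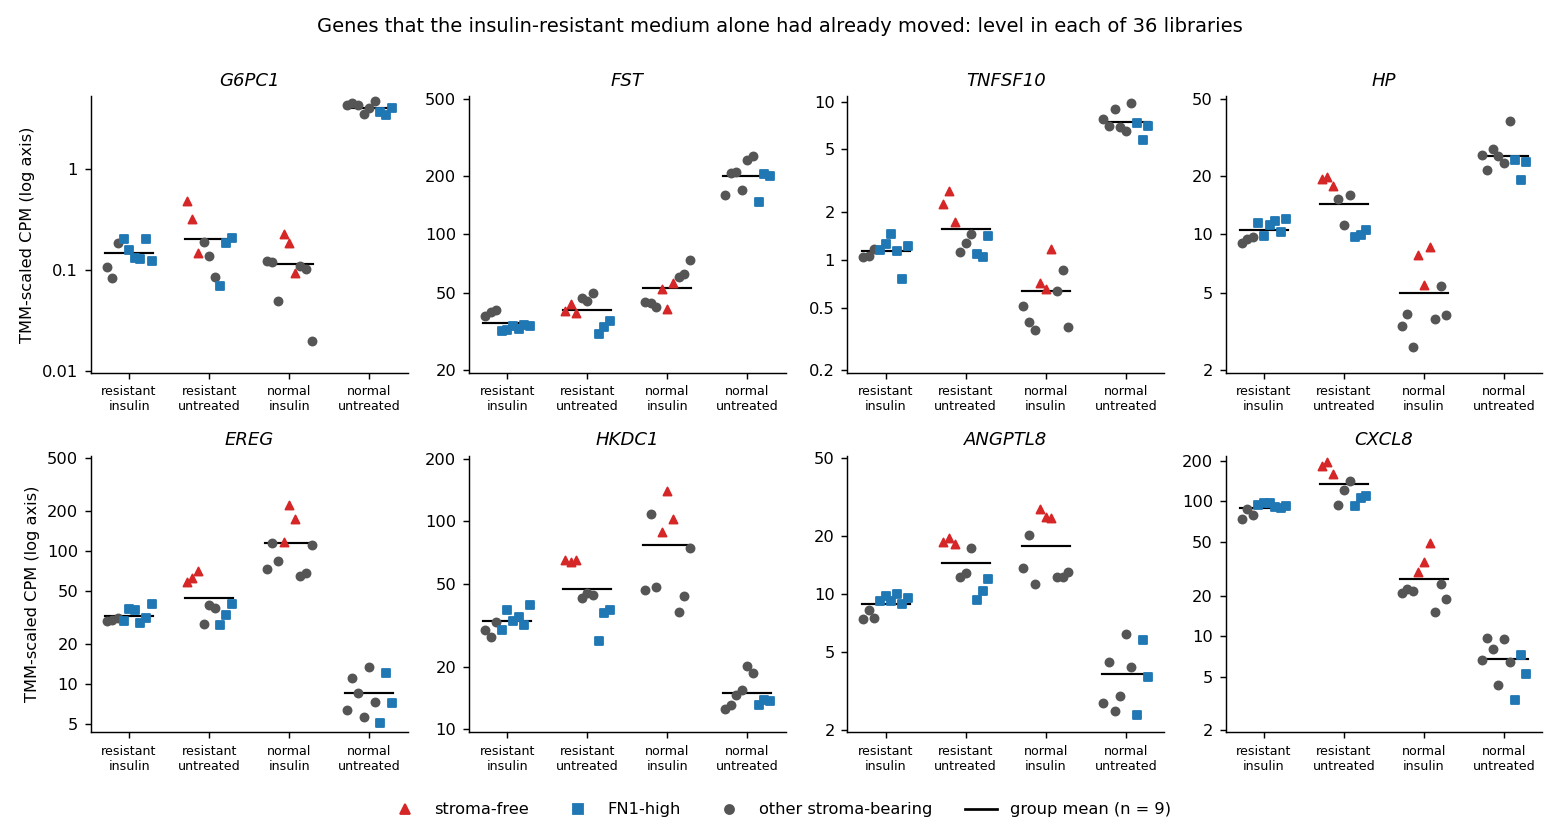
Level of 8 genes that the insulin-resistant medium alone had moved in the direction of insulin, in TMM-scaled CPM on a log axis. Each point is a library of the group on the horizontal axis, red triangles are stroma-free, blue squares FN1-high and grey circles other libraries, and bars are group means of 9. G6PC1, FST, TNFSF10 and HP (top row) are highest in normal untreated libraries, and EREG, HKDC1, ANGPTL8 and CXCL8 (bottom row) are lowest there.

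Genes raised by insulin in normal medium and already raised by the medium included growth factor and chemokine genes. EREG (ENSG00000124882), the EGF receptor ligand epiregulin, had lowest, median and highest levels of 28.7, 31.1 and 39.8 CPM in resistant insulin, 27.8, 39.0 and 70.4 CPM in resistant untreated, 64.8, 110.2 and 220.1 CPM in normal insulin and 5.14, 7.41 and 13.4 CPM in normal untreated libraries. Normal untreated libraries lay below all others, and normal insulin libraries overlapped only the stroma-free resistant untreated ones. Its difference was -4.27 ± 0.33 (SE, edgeR adjusted p = 3.15e-10). With 36 libraries its response counted as reversed, because insulin in insulin-resistant medium had an effect of -0.55 with an unadjusted p of 0.0256, but without the stroma-free libraries that effect was -0.08 and the difference -3.33. KLHDC7B, whose response counted as lost, ranged over 4.50 to 6.83 CPM in resistant insulin, 5.53 to 9.87 CPM in resistant untreated, 21.2 to 89.7 CPM in normal insulin and 0.606 to 5.21 CPM in normal untreated libraries. Its normal untreated libraries overlapped the resistant insulin ones, and it had a difference of -4.92 ± 0.48 (SE, edgeR adjusted p = 1.58e-08), or -4.16 with 30 libraries.

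ANGPTL8, a hormone of liver and fat that inhibits lipoprotein lipase after feeding, had lowest, median and highest levels of 7.40, 9.21 and 9.97 CPM in resistant insulin, 9.29, 12.9 and 19.4 CPM in resistant untreated, 11.3, 13.7 and 27.4 CPM in normal insulin and 2.39, 3.75 and 6.19 CPM in normal untreated libraries. Resistant insulin libraries lay below every normal insulin library and above every normal untreated one. The medium raised it by 1.91 against 2.22 for insulin in normal medium, and its difference was -2.92 ± 0.28 (SE, edgeR adjusted p = 1.25e-08). Insulin in insulin-resistant medium had an effect of -0.70 with 36 libraries and of -0.31 with 30. HKDC1, a hexokinase family member, ranged over 27.8 to 39.4 CPM in resistant insulin, 26.7 to 65.2 CPM in resistant untreated, 36.7 to 140.5 CPM in normal insulin and 12.5 to 20.1 CPM in normal untreated libraries. The stroma-free resistant untreated libraries were its 3 highest of that group, at 63.8 to 65.2 CPM, and the difference of -2.90 became -1.97 without the stroma-free libraries. PLIN2, which coats lipid droplets, ranged over 112 to 122 CPM in resistant insulin, 103 to 178 CPM in resistant untreated, 134 to 251 CPM in normal insulin and 62.3 to 109.5 CPM in normal untreated libraries, with a difference of -1.41 ± 0.17 (SE, edgeR adjusted p = 3.73e-07), or -0.87 with 30 libraries.

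CXCL8, the neutrophil chemokine interleukin-8, was raised more by the medium than by insulin. Its lowest, median and highest levels were 74.2, 90.2 and 97.3 CPM in resistant insulin, 91.6, 122 and 197 CPM in resistant untreated, 15.1, 22.3 and 49.0 CPM in normal insulin and 3.37, 6.62 and 9.65 CPM in normal untreated libraries. Both resistant groups lay above both normal groups with no overlap, normal insulin libraries lay above normal untreated ones, and resistant insulin libraries overlapped the lower resistant untreated ones. The medium effect was 4.32, the insulin effect in normal medium 1.96 and the difference -2.66 ± 0.28 (SE, edgeR adjusted p = 5.79e-08). Over the inflammation and NF-kB list the medium alone raised 13 of 19 members tested and lowered 0, against 13.3% raised and 8.62% lowered over all genes. Of these 19, 9 had a difference below 0 and 0 above it, with a median of -0.75, against 23.5% below 0, 6.22% above it and a median of -0.01 over all genes. RELB, an NF-kB subunit, ranged over 17.7 to 22.5 CPM in resistant insulin, 20.3 to 36.1 CPM in resistant untreated, 11.8 to 20.7 CPM in normal insulin and 6.14 to 10.6 CPM in normal untreated libraries and had a difference of -1.34 ± 0.16 (SE, edgeR adjusted p = 4.14e-07). NFKB1, another subunit, had one of -0.78, and with 30 libraries the values were -0.96 for RELB and -0.55 for NFKB1. In 30 libraries 8 members were below 0 and 1 above, against 9.37% and 12.4% of all genes. In 18 libraries it was 7 and 1, against 12.2% and 6.38%.

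Of the other genes named by size among reversed responses, EVA1A-AS had a difference of -3.24, and HCAR3, a receptor for hydroxy acids, one of -2.61. EVA1A-AS is transcribed opposite EVA1A and whether counting used the strand is not given in the sources used here, while HCAR3 has a close paralog, HCAR2, so both values are uncertain. With 30 libraries they were -2.38 and -1.64. SULT1A3, a sulfotransferase that shares its sequence with SULT1A4, is a case that rests on the stroma-free libraries. It was at 14.1 to 18.5 CPM in stroma-free and 2.32 to 12.5 CPM in other resistant untreated libraries, and at 14.1 to 21.5 CPM in stroma-free and 1.72 to 3.85 CPM in other normal insulin libraries. Its difference was -3.06 ± 0.72 (SE, edgeR adjusted p = 0.00132) with 36 libraries and -0.11 (edgeR adjusted p = 0.897) with 30.

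Of the genes described in this text 25 counted as reversed with 36 libraries, with insulin effects in insulin-resistant medium between -1.76 for SULT1A3 and -0.17 for NFKB1 on the log2 scale. In the 30-library fit the same 25 effects lay between -0.39 for RELB and 0.04 for AKR1B10. The summed hepatocyte markers were higher in the stroma-free resistant untreated libraries than in any resistant insulin library (14859 to 17892 CPM), and the part of this in the reversals was not tested.

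Chaperones of the endoplasmic reticulum lost their response mostly without a call for the medium. Insulin in normal medium raised 20 of the 22 members of the list (24.9% of all genes), and in insulin-resistant medium 0 passed the test in this fit. The difference was below 0 in 20 of 22 and above it in 0, with a median of -1.11, against 23.5% below 0 and a median of -0.01 over all genes. It was below 0 in 17 members with 30 libraries (median -0.77) and in 15 with 18 (median -1.01), against 9.37% and 12.2% of all genes. Scaling to hepatocyte genes left 12 (median -0.73, against 5.99% of all genes below 0). Replicates 7 to 9 alone, where all groups but normal insulin were FN1-high, gave 14 (median -0.52, against 12.4% of all genes below 0 and 11.3% above 0). Of the 22 genes, 18 had a lost response with no call for the medium. That absence of a call depends on the scale, since the medium raised 2 of the 22 with TMM scaling, 8 with hepatocyte scaling and 22 with hepatocyte scaling of the 30 libraries. In these settings it raised 21.2% and 70.9% of all genes tested.

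HSPA5 (ENSG00000044574), which encodes the main Hsp70 chaperone of the endoplasmic reticulum, BiP, is outside the rule for named genes and was chosen after its values were seen. Its lowest, median and highest levels were 833, 1369.6 and 1463 CPM in resistant insulin, 1041, 1113 and 1425 CPM in resistant untreated, 2532, 4561 and 7570.3 CPM in normal insulin and 862, 1245 and 1361 CPM in normal untreated libraries. Normal insulin libraries lay above all others and the other 3 groups overlapped. Insulin changed it by -0.08 in insulin-resistant medium (edgeR adjusted p = 0.77) and by 1.91 in normal medium, the medium by 0.04, and the difference was -1.99 ± 0.24 (SE, edgeR adjusted p = 4.27e-07). With 30 libraries the difference was -1.74 and with 18 it was -2.06.

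SDF2L1, a cofactor of BiP, had lowest, median and highest levels of 19.5, 21.4 and 23.9 CPM in resistant insulin, 21.5, 25.8 and 33.1 CPM in resistant untreated, 50.2, 76.9 and 124 CPM in normal insulin and 15.2, 19.1 and 28.3 CPM in normal untreated libraries, and again normal insulin libraries lay above all others. Its difference was -2.24 ± 0.22 (SE, edgeR adjusted p = 1.43e-08). HYOU1, a large chaperone related to Hsp70, ranged over 238 to 382 CPM in resistant insulin, 313 to 451 CPM in resistant untreated, 537 to 1843 CPM in normal insulin and 231 to 295 CPM in normal untreated libraries, with a difference of -2.19 ± 0.24 (SE, edgeR adjusted p = 1.07e-07). MANF, a secreted stress protein of this compartment, ranged over 56.2 to 76.5 CPM in resistant insulin, 59.6 to 87.3 CPM in resistant untreated, 135 to 331 CPM in normal insulin and 49.5 to 81.3 CPM in normal untreated libraries, with a difference of -1.96 ± 0.19 (SE, edgeR adjusted p = 1.58e-08). In both, normal insulin libraries did not overlap the other groups, and the differences with 30 libraries were -1.86 for SDF2L1, -1.63 for HYOU1 and -1.51 for MANF. CRELD2, also chosen after its values were seen, had a difference of -1.14 with 36 and -1.01 with 30 libraries.

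Promoters of 4 of these genes are shown because ATF6 and XBP1, the factors that raise chaperones when unfolded protein accumulates, are known to act through the endoplasmic reticulum stress elements ERSE (CCAAT, any 9 bases, CCACG) and ERSE-II (ATTGG, any base, CCACG). The sequences are the 250 bases before each start in RefSeq, build GRCh38.p14, written 5′ to 3′ along the gene, and capitals mark the fixed letters of a match on either strand. They lie at chr9:125241344-125241593 (- strand) for HSPA5, chr22:49918384-49918633 (+) for CRELD2, chr11:119057206-119057455 (-) for HYOU1 and chr22:21642052-21642301 (+) for SDF2L1.
HSPA5: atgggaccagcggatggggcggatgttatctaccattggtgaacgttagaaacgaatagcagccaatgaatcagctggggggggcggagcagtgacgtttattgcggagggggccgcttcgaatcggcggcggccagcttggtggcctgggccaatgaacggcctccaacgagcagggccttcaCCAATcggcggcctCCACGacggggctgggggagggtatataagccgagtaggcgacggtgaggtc
CRELD2: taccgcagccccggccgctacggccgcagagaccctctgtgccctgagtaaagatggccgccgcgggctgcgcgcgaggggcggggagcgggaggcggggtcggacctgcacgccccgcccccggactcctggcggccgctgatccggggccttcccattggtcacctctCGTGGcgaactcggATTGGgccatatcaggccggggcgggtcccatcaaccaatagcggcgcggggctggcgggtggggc
HYOU1: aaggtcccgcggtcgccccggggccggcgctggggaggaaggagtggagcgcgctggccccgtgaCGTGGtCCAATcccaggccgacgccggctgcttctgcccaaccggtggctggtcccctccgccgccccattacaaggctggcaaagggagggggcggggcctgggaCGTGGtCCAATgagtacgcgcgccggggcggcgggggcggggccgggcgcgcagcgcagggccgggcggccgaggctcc
SDF2L1: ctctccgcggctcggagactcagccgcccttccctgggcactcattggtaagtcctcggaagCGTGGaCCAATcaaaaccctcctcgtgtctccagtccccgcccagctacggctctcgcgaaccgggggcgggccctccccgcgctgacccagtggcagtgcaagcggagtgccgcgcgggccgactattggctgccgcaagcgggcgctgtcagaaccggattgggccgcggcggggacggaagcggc
HSPA5 holds an ERSE 66 bases and CRELD2 one 80 bases before the start, HYOU1 holds an ERSE-II at 79 and another at 185 bases, and SDF2L1 one at 188 bases. ERSE was found in 7 of the 21 chaperone genes with a promoter in the table (CALR, CANX, CRELD2, HSP90B1, HSPA5, PDIA6 and XBP1) and in 26 of all 35116 promoters (0.0740%). ERSE-II was found in 3 of the 21 (HERPUD1, HYOU1 and SDF2L1) and in 18 of all promoters (0.0513%). These matches are letters only, and no binding was measured.

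**Figure D4:**
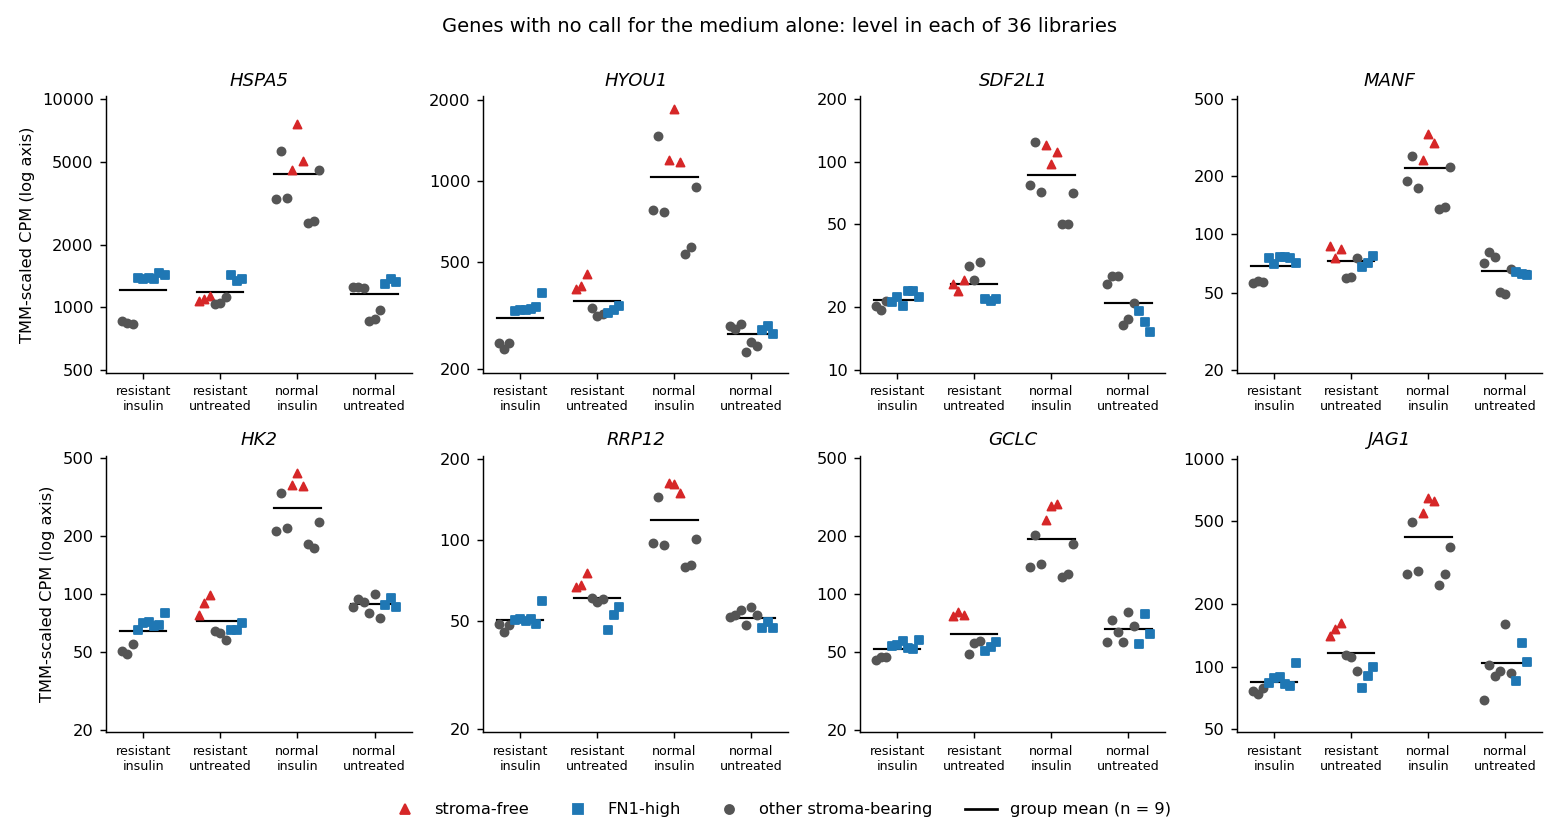
Level of 8 genes with no call for the medium alone, in TMM-scaled CPM on a log axis, with groups, symbols and bars (means of 9) as in the plot of genes already moved. In HSPA5, HYOU1, SDF2L1 and MANF every normal insulin library lies above every other library, and the highest normal insulin values are stroma-free in all but SDF2L1.

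Genes of ribosome biogenesis followed the chaperones. Insulin in normal medium raised all 24 tested members of that list, against 24.9% of all genes. Of the 24, 22 had a difference below 0 and 0 above it, against 23.5% and 6.22% of all genes, and the median was -1.09. With 30 libraries 22 were below 0 (median -0.60), with 18 it was 20 (median -0.70) and with hepatocyte scaling 18 (median -0.72). Over all genes 9.37%, 12.2% and 5.99% were below 0 in these fits. With 36 libraries 14 members had a lost and 7 a reversed response with no call for the medium. This too depends on the scale, since the medium raised 1 of the 24 with TMM scaling and 14 with hepatocyte scaling. There 11 lost responses were in genes already moved and 7 in genes not moved. Hepatocyte scaling of the 30 libraries gave 22 raised. In the 2 hepatocyte settings the medium raised 21.2% and 70.9% of all genes. RRP12, a ribosome export and processing factor, had lowest, median and highest levels of 45.6, 50.3 and 59.4 CPM in resistant insulin, 46.5, 60.4 and 75.9 CPM in resistant untreated, 79.4, 101 and 164 CPM in normal insulin and 47.2, 51.8 and 56.8 CPM in normal untreated libraries. Normal insulin libraries lay above all others. Its difference was -1.48 ± 0.16 (SE, edgeR adjusted p = 1.16e-07) with 36 libraries and -0.94 with 30. RRP9, of the box C/D particle that processes ribosomal RNA, had a difference of -1.33, and ODC1, the first enzyme of polyamine synthesis, one of -1.51. With 30 libraries these were -0.95 for RRP9 and -0.88 for ODC1.

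ATF4, a factor induced by stress and amino acid shortage, has known targets in amino acid synthesis. Of 24 such genes 16 were below 0 and 1 above, at a median of -0.61, against 23.5% and 6.22% of all genes. These counts were 13 and 1 with 30 libraries (9.37% and 12.4% of all genes) and 19 and 0 with 18 (12.2% and 6.38%). In replicates 7 to 9 alone they were 9 and 4 with a median of -0.09, against 12.4% below and 11.3% above over all genes. CTH, which makes cysteine from cystathionine, ranged over 8.41 to 12.5 CPM in resistant insulin, 8.41 to 16.0 CPM in resistant untreated, 26.1 to 53.0 CPM in normal insulin and 9.17 to 17.2 CPM in normal untreated libraries, and its difference was -1.73 ± 0.21 (SE, edgeR adjusted p = 4.42e-07). Normal insulin libraries did not overlap the others. The medium alone had no call for CTH with 36 libraries but changed it by -0.37 with 30 (edgeR adjusted p = 0.0191). TRIB3, a pseudokinase induced by ATF4 that binds AKT, was at 279 ± 50.8 CPM in resistant insulin, 358 ± 46.6 CPM in resistant untreated, 743 ± 249.8 CPM in normal insulin and 298 ± 61.8 CPM in normal untreated libraries (SD, n = 9 each), with a difference of -1.72 ± 0.21 (SE, edgeR adjusted p = 4.27e-07). CEBPB, a transcription factor of liver stress and acute-phase responses, had a difference of -1.60. With 30 libraries the 3 values were -1.14 for CTH, -1.13 for TRIB3 and -1.11 for CEBPB.

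Targets of NRF2, the regulator of antioxidant genes, were below 0 in 10 of 20 cases and above it in 0, at a median of -0.48. With 30 libraries 6 were below and 1 above with a median of -0.18. Over all genes 23.5% were below and 6.22% above with 36 libraries, against 9.37% and 12.4% with 30. GCLC, which catalyses the limiting step of glutathione synthesis, had lowest, median and highest levels of 45.7, 52.6 and 57.9 CPM in resistant insulin, 49.1, 56.4 and 80.7 CPM in resistant untreated, 122, 182 and 292 CPM in normal insulin and 55.2, 63.7 and 80.5 CPM in normal untreated libraries. Normal insulin libraries lay above all others, and the 3 stroma-free ones were the highest. Its difference was -1.86 ± 0.21 (SE, edgeR adjusted p = 1.20e-07) with 36 and -1.15 with 30 libraries. The medium alone had no call for GCLC with 36 libraries but changed it by -0.36 with 30 (edgeR adjusted p = 0.00358). AKR1B10, an aldo-keto reductase with close paralogs, had a difference of -2.36, and SRXN1, which restores oxidised peroxiredoxins, one of -1.16. With 30 libraries these were -1.48 for AKR1B10 and -0.76 for SRXN1.

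Of 20 feedback genes of the MAPK pathway 8 were below 0 and 0 above, against 23.5% and 6.22% of all genes, and 6 were below with 30 libraries (9.37% of all genes) and 5 with 18 (12.2%). The median was -0.52 with 36 libraries and -0.51 with 30 and with 18. PHLDA1, an immediate response gene, was at 179.8 ± 10.3 CPM in resistant insulin, 244 ± 62.8 CPM in resistant untreated, 392 ± 132 CPM in normal insulin and 128 ± 25.4 CPM in normal untreated libraries (SD, n = 9 each), and its difference was -2.05 ± 0.22 (SE, edgeR adjusted p = 1.07e-07). DUSP6, a phosphatase of ERK, ranged over 40.1 to 54.9 CPM in resistant insulin, 40.0 to 75.2 CPM in resistant untreated, 80.9 to 120.3 CPM in normal insulin and 40.5 to 71.4 CPM in normal untreated libraries, with a difference of -1.18 ± 0.15 (SE, edgeR adjusted p = 7.83e-07). With 30 libraries these differences were -1.24 for PHLDA1 and -0.74 for DUSP6. Normal insulin libraries lay above every other library for DUSP6 and above every resistant insulin and normal untreated one for PHLDA1, where the stroma-free resistant untreated ones overlapped them.

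2 further genes with no call for the medium were chosen after their values were seen. HK2, the inducible hexokinase that traps glucose in the cell, had lowest, median and highest levels of 48.8, 68.7 and 79.6 CPM in resistant insulin, 58.0, 65.6 and 98.3 CPM in resistant untreated, 172, 234 and 422 CPM in normal insulin and 75.4, 87.5 and 100.2 CPM in normal untreated libraries. JAG1, a ligand of Notch receptors, ranged over 73.8 to 104 CPM in resistant insulin, 79.3 to 162 CPM in resistant untreated, 248 to 645 CPM in normal insulin and 68.9 to 161 CPM in normal untreated libraries. Normal insulin libraries lay apart from all others for both. Their differences were -1.90 ± 0.21 (SE, edgeR adjusted p = 1.03e-07) for HK2 and -2.53 ± 0.25 (SE, edgeR adjusted p = 1.92e-08) for JAG1, and with 30 libraries -1.30 and -1.72.

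Besides SDF2L1 and HYOU1, the largest losses without a call for the medium were in P2RX1, C5AR1, PLEKHH2 and RGCC, among genes called alike with 36 and 30 libraries. P2RX1, an ATP-gated channel, ranged over 0.216 to 0.502 CPM in resistant insulin, 0.360 to 0.890 CPM in resistant untreated, 1.36 to 6.79 CPM in normal insulin and 0.210 to 1.12 CPM in normal untreated libraries, with a difference of -3.16 ± 0.49 (SE, edgeR adjusted p = 8.90e-06). C5AR1, the receptor of complement fragment C5a, ranged over 0.210 to 0.463 CPM in resistant insulin, 0.216 to 0.569 CPM in resistant untreated, 1.36 to 6.69 CPM in normal insulin and 0.256 to 0.831 CPM in normal untreated libraries, with a difference of -2.75 ± 0.40 (SE, edgeR adjusted p = 4.61e-06). Normal insulin libraries lay above all others in both genes. Only this group had a mean over the 3 CPM that naming required, so its standing apart partly follows from the choice of genes. Counts per library in the other groups were 13 to 132 for P2RX1 and 10 to 98 for C5AR1, so fold changes between those groups are imprecise. PLEKHH2 ranged over 3.46 to 6.05 CPM in resistant insulin, 4.76 to 7.60 CPM in resistant untreated, 8.32 to 53.5 CPM in normal insulin and 3.36 to 5.76 CPM in normal untreated libraries, with a difference of -2.61. With 30 libraries these differences were -2.10 for P2RX1, -2.36 for C5AR1 and -1.83 for PLEKHH2. RGCC, a regulator of the cell cycle, had one of -2.76, but of its groups only resistant insulin and normal insulin did not overlap, and in replicates 1 to 3 alone it was 0.14. Its insulin effect in normal medium was 0.00 in replicates 1 to 3 and -0.26 in replicates 4 to 6. In replicates 7 to 9 it was 2.42, so that the rise rests on replicates 7 to 9. In that run normal untreated libraries were FN1-high and normal insulin ones were not. Normal insulin was also the only group in which RGCC had a mean over 3 CPM. Of the genes named for the largest loss after a prior move, PLCH2, a phospholipase C, had a difference of -2.55 and FAM135A one of -2.06, against -1.56 and -1.22 with 30 libraries.

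In 150 genes the medium had moved the gene against the direction of insulin. SERPINA3, the acute-phase protease inhibitor alpha-1-antichymotrypsin, had lowest, median and highest levels of 140.2, 171 and 221 CPM in resistant insulin, 157, 237 and 351 CPM in resistant untreated, 27.2, 37.2 and 71.1 CPM in normal insulin and 108, 113 and 141 CPM in normal untreated libraries. Both resistant groups lay above normal insulin libraries with no overlap, normal untreated libraries also lay above the normal insulin ones, and their highest value met the lowest of the resistant insulin libraries. The medium raised it by 1.01, insulin in normal medium changed it by -1.37, and the difference was 0.93 ± 0.24 (SE, edgeR adjusted p = 0.00383), or 1.85 with 30 libraries.

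MIR3142HG, the host transcript of a microRNA, ranged over 1.55 to 2.52 CPM in resistant insulin, 1.87 to 5.22 CPM in resistant untreated, 0.179 to 0.526 CPM in normal insulin and 0.564 to 1.99 CPM in normal untreated libraries, and its difference was 1.39 ± 0.32 (SE, edgeR adjusted p = 0.00103). C1orf116 ranged over 4.84 to 7.15 CPM in resistant insulin, 4.99 to 10.5 CPM in resistant untreated, 0.554 to 1.42 CPM in normal insulin and 2.15 to 2.91 CPM in normal untreated libraries, and its difference was 1.09 ± 0.25 (SE, edgeR adjusted p = 9.63e-04). With 30 libraries these were 2.27 for MIR3142HG and 1.73 for C1orf116. In both genes the 4 groups fell in the order resistant untreated, resistant insulin, normal untreated and normal insulin by their medians. For MIR3142HG only resistant untreated had a mean over the 3 CPM that naming required, so its top place partly follows from the choice of genes. The normal insulin level of MIR3142HG rests on 9 to 34 counts per library, so its fold changes are imprecise. SPRY4, an inhibitor of RAS signalling, was raised by insulin in normal medium and lowered by the medium, with 23.4 to 29.1 CPM in resistant insulin, 25.0 to 35.7 CPM in resistant untreated, 42.4 to 98.6 CPM in normal insulin and 28.9 to 59.6 CPM in normal untreated libraries and a difference of -1.13 ± 0.24 (SE, edgeR adjusted p = 3.67e-04), which was -0.85 with 30 libraries and -1.09 (edgeR adjusted p = 0.108) with 18 libraries. CCNB1IP1, a ubiquitin ligase of cyclin B, had a difference of -0.89, or -0.41 with 30 libraries, and MAB21L4 one of 0.81, or 1.61 with 30. The medium effect on MAB21L4 was 0.57 with 36 libraries but 0.24 with 30 (edgeR adjusted p = 0.246), where its prior move was not called.

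Lipid and secretory genes gave no stable direction. Over all genes 23.5% were below and 6.22% above 0 with 36 libraries, and 9.37% and 12.4% with 30. Of 25 cholesterol synthesis genes, 11 were below 0 and 1 above with 36 libraries (median -0.33), whereas with 30 libraries 1 was below and 13 above (median 0.23). Fatty acid synthesis had 6 below and 0 above of 20 (median -0.25), against 1 and 5 with 30 libraries (median 0.18). Of 20 secreted liver proteins tested, 6 were below and 2 above (median -0.15), against 1 and 11 of 21 with 30 libraries (median 0.39). The median of the 23 hepatocyte identity genes turned from -0.57 with 36 libraries to 0.29 with 30 and that of the 24 stromal markers from 1.12 to -0.16. These turns accompany the removal of the stroma-free libraries, whose hepatocyte sums were the highest.

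STARD4, which carries cholesterol between membranes, kept its call without the stroma-free libraries. It ranged over 69.6 to 104 CPM in resistant insulin, 65.2 to 104 CPM in resistant untreated, 127 to 225 CPM in normal insulin and 82.0 to 110.0 CPM in normal untreated libraries, with normal insulin libraries above all others, and its difference was -0.88 ± 0.14 (SE, edgeR adjusted p = 1.84e-05) with 36 and -0.54 with 30 libraries. CYP51A1, a sterol demethylase, had one of -0.68, which was -0.11 (edgeR adjusted p = 0.381) with 30 libraries. FASN, the fatty acid synthase, was at 1052 ± 89.0 CPM in resistant insulin, 1544 ± 399 CPM in resistant untreated, 1775 ± 657 CPM in normal insulin and 1366 ± 286 CPM in normal untreated libraries (SD, n = 9 each). Its difference of -0.84 ± 0.21 (SE, edgeR adjusted p = 0.00271) became -0.08 (edgeR adjusted p = 0.737) with 30 libraries. SREBF1, which encodes the transcription factor SREBP-1, had one of -0.55 with 36 and -0.23 (edgeR adjusted p = 0.0689) with 30 libraries.

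Fatty acid oxidation had 5 of 23 members above and 3 below 0 (median 0.10), against 6.22% and 23.5% of all genes. With 30 libraries 13 were above and 2 below (median 0.39, against 12.4% and 9.37%), and with 18 libraries 4 and 2. ACSL1, which activates fatty acids with coenzyme A, had a difference below 0, of -1.10 with 36 and -0.44 with 30 libraries. The hepatocyte factor FOXA1 had a difference of -1.18 and RBP4, the plasma carrier of retinol, one of -0.96, and neither was called with 30 libraries, at -0.28 and -0.16. The lipid droplet and lipase list had 1 of 18 members above and 4 below 0 (median 0.00), and with 30 libraries 5 of 19 above and 2 below (median 0.09). Of 5 endothelial markers tested 1 was above and 2 below (3 and 1 of 6 with 30 libraries). Of 7 leukocyte markers 3 were above and 0 below (4 and 0 with 30). Of 8 cholangiocyte markers 0 were above and 5 below with a median of -0.80, against 0 and 2 with a median of 0.01 with 30 libraries and 0 and 1 with 18. Over all genes 6.22% were above and 23.5% below with 36 libraries, 12.4% and 9.37% with 30, and 6.38% and 12.2% with 18.

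Genes of the insulin receptor pathway and of glucose output were mixed. Of 20 gluconeogenesis and FOXO1 targets, 4 were above and 2 below 0 (8 and 1 with 30 libraries), and of 24 insulin pathway genes 2 were above and 9 below (5 and 3 with 30). The shares over all genes were 6.22% above and 23.5% below with 36 libraries and 12.4% and 9.37% with 30. PCK1, the first committed enzyme of gluconeogenesis, ranged over 1.61 to 2.95 CPM in resistant insulin, 1.55 to 4.02 CPM in resistant untreated, 2.49 to 5.85 CPM in normal insulin and 5.28 to 9.01 CPM in normal untreated libraries. Its difference was 0.30 (edgeR adjusted p = 0.377) with 36 libraries and 1.16 ± 0.17 (SE, edgeR adjusted p = 1.82e-05) with 30. TRIB1, a pseudokinase that acts on hepatic lipid synthesis, had one of -1.72, or -0.97 with 30 libraries. IGFBP1, the IGF-binding protein that insulin lowers in liver, stood at 105 to 144 CPM in resistant insulin, 91.7 to 299 CPM in resistant untreated, 354 to 1569 CPM in normal insulin and 301 to 776 CPM in normal untreated libraries. It was higher in normal insulin libraries by 0.72 on the log2 scale with 36 libraries. This insulin effect was 0.26 (edgeR adjusted p = 0.224) with 30 libraries and 0.02 (edgeR adjusted p = 0.96) in replicates 7 to 9. The difference of -1.25 ± 0.33 (SE, edgeR adjusted p = 0.00418) became -0.26 (edgeR adjusted p = 0.495) without the stroma-free libraries.

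INSR, the insulin receptor, had a difference of -0.17 (edgeR adjusted p = 0.438) with 36 libraries and of 0.38 ± 0.10 (SE, edgeR adjusted p = 0.00648) with 30. IRS2, the receptor substrate that FOXO1 raises, was at 0 to 0.0874 CPM in stroma-free and 27.9 to 40.8 CPM in other resistant untreated libraries, and at 0 to 0.0928 CPM in stroma-free and 13.1 to 53.0 CPM in other normal insulin libraries. Its difference was 0.51 (edgeR adjusted p = 0.798) with 36, -0.72 (edgeR adjusted p = 0.0588) with 30 and -1.49 ± 0.39 (SE, edgeR adjusted p = 0.0161) with 18 libraries. LEAP2, the liver peptide that antagonises the ghrelin receptor and that the series title names, had lowest, median and highest levels of 0.832, 0.942 and 1.21 CPM in resistant insulin, 0.804, 1.21 and 2.13 CPM in resistant untreated, 0.685, 1.07 and 1.80 CPM in normal insulin and 1.58, 1.76 and 2.08 CPM in normal untreated libraries. Normal untreated libraries lay above all resistant insulin libraries and overlapped only the stroma-free libraries of the other groups. Its difference was 0.30 ± 0.25 (SE, edgeR adjusted p = 0.379) with 36 libraries, 1.07 ± 0.19 (SE, edgeR adjusted p = 1.66e-04) with 30 and 0.64 (edgeR adjusted p = 0.13) with 18.

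**Figure D5:**
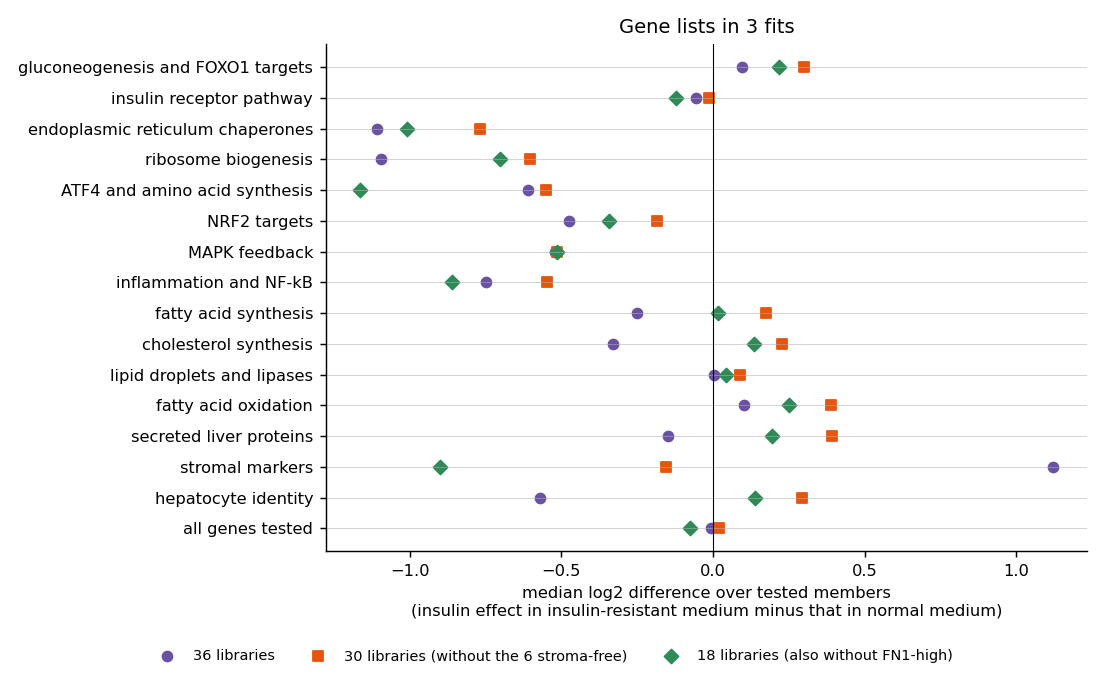
Median log2 difference of insulin effects over the tested members of each gene list (vertical axis) with 36, 30 and 18 libraries, and over all genes tested. Endoplasmic reticulum chaperones (-1.11, -0.77 and -1.01) and ribosome biogenesis (-1.09, -0.60 and -0.70) lie left of 0 in all 3 fits, while cholesterol synthesis, fatty acid synthesis, secreted liver proteins, hepatocyte identity and stromal markers cross 0.

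Stroma-free and FN1-high libraries came in runs of 3 replicate numbers within a group (1 to 3, 4 to 6 or 7 to 9), so libraries of a run may not be independent. When each run was summed to 1 sample, 3 per group, edgeR called 1 gene above 0 and 4 below it. Among the named genes these were G6PC1 at 4.71, EREG at -4.04 and KLHDC7B at -4.85 on the log2 scale. The 4233 genes below 0 kept that sign in 4164 of 4231 tested with replicates 1 to 3 alone. They did so in 4230 of 4233 with replicates 4 to 6 and in 3328 of 4213 with replicates 7 to 9. Without the stroma-free libraries it was 3597 of 4220. The 1119 genes above 0 kept theirs in 1108 of 1116, 1115 of 1117 and 955 of 1103 tested in these runs. Without the stroma-free libraries it was 1119 of 1119. Each of these fits uses part of the 36 libraries that called the genes. Agreement in sign is therefore largely built in and is not independent support. Replicates 7 to 9 held no stroma-free library. Their normal insulin libraries had 12673 to 14884 CPM of FN1, against 32497 to 37332 CPM in the other groups of that run. Insulin in normal medium and FN1 level cannot be told apart there. By batch date, the libraries of 22 April alone gave 3 genes above and 1 below 0 and those of 11 April 90 and 546, while the batch of 24 May held no resistant insulin library.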

How the data were processed

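RNA of 36 samples was sequenced as strand-specific poly-A libraries, per the labels' protocols. The authors' deposited table holds estimated counts per gene for 57771 Ensembl genes. The submitters' processing notes name STAR, Salmon and build GRCh37, while versions and settings were not given in those sources. Of these values 15.5% were not whole (tolerance 0.0005) and were rounded, 24214 genes were at 0 throughout, and 51994 (90.0%) had a symbol. Groups came from the sample titles.

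edgeR 4.0.16 (R 4.3.3) was fitted to all 36 libraries with TMM scaling, filterByExpr by group, a coefficient per group and the batch date as covariate. The robust quasi-likelihood F-test gave p-values, adjusted by Benjamini and Hochberg over the 17983 genes tested, with a threshold of 0.05. CPM values are TMM-scaled, and log2 fold changes carry standard errors (SE). DESeq2 1.42.0, other scalings and filters, blocks, subsets and summed sets were alternatives. Fits without the stroma-free libraries with averaged TMM factors, and sets summed with a set block, were added after the data were seen. Stroma-free libraries have a median stromal marker under 1 CPM, and FN1-high ones over 25000 CPM of FN1. On simulated counts with independent libraries for these 17983 genes, this fit recovered 28.4%, 55.2% and 69.7% of 1.5-, 2- and 4-fold differences of insulin effects.

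The genes, lists, comparisons and sort were chosen with earlier results of these data known. Named genes were 13 key genes, the 6 largest differences per class among genes over 3 CPM called alike with 36 and 30 libraries, the 6 largest reversals without that condition, and up to 3 genes per list by adjusted p; 76 qualify and not all are described. Some qualifying genes are not reported here. Of 18 lists with 367 entries, 362 were in the table. Promoters came from RefSeq (GRCh38.p14), matched by symbol.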

Additional observations from a re-analysis of the deposited data

Results flagged for a closer look

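For 56 of the 60 genes followed through all settings, the insulin effect differed between insulin-resistant and normal medium by the test of the difference itself (edgeR, adjusted p under 0.05, 36 libraries). Most of these genes were chosen by this same difference or after their values were seen. The count of 56 was therefore largely fixed in advance. Over all genes tested 29.8% were called. On the log2 scale the genes with a difference above 0 were G6PC1 (4.68), TNFSF10 (3.03), HPR (2.12), HP (1.89), FST (1.70), MIR3142HG (1.39), C1orf116 (1.09), SERPINA3 (0.93), MAB21L4 (0.81) and BCL6 (0.48).

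Below 0, the growth factor, metabolic and signalling genes were KLHDC7B (-4.92), EREG (-4.27), EVA1A-AS (-3.24), P2RX1 (-3.16), SULT1A3 (-3.06), ANGPTL8 (-2.92), HKDC1 (-2.90), RGCC (-2.76), C5AR1 (-2.75), CXCL8 (-2.66), PLEKHH2 (-2.61), HCAR3 (-2.61), PLCH2 (-2.55), JAG1 (-2.53), FAM135A (-2.06), PHLDA1 (-2.05), HK2 (-1.90), TRIB1 (-1.72), RELB (-1.34), IGFBP1 (-1.25), DUSP6 (-1.18), SPRY4 (-1.13), CCNB1IP1 (-0.89) and NFKB1 (-0.78). Those of protein folding, ribosome biogenesis and stress were SDF2L1 (-2.24), HYOU1 (-2.19), HSPA5 (-1.99), MANF (-1.96), CRELD2 (-1.14), RRP12 (-1.48), RRP9 (-1.33), ODC1 (-1.51), CTH (-1.73), TRIB3 (-1.72), CEBPB (-1.60), AKR1B10 (-2.36), GCLC (-1.86) and SRXN1 (-1.16). Those of lipid metabolism and hepatocyte identity were PLIN2 (-1.41), FOXA1 (-1.18), ACSL1 (-1.10), RBP4 (-0.96), STARD4 (-0.88), FASN (-0.84), CYP51A1 (-0.68) and SREBF1 (-0.55). All of these values come from 1 contrast that shares its libraries between genes.

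In 13 of 240 groups of 9 libraries examined, the highest or lowest library lay far from the others of its group by Dixon's test, where chance gives about 1 in 20. Resistant insulin replicate 9 was the highest of its group for PCK1 (2.95 CPM), C1orf116 (7.15 CPM), TRIB1 (67.5 CPM) and RRP12 (59.4 CPM). Normal untreated replicate 6 was the highest for HP (38.4 CPM) and HPR (14.1 CPM). Among stroma-free libraries, normal insulin replicate 5 was the highest for PLEKHH2 (53.5 CPM) and normal insulin replicate 4 for RELB (20.7 CPM). Resistant insulin replicate 3 was the lowest of its group for SREBF1 (80.6 CPM) and resistant insulin replicate 7 for SULT1A3 (1.30 CPM). The remaining highest libraries were normal untreated replicate 4 for SULT1A3 (7.06 CPM), resistant untreated replicate 5 for C5AR1 (0.570 CPM) and normal untreated replicate 5 for INSR (76.0 CPM).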

How the results depend on the processing

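With 36 libraries 1119 genes were above 0 and 4233 below 0, 3071 responses were lost and 1191 reversed. Genes above 0 numbered 2247 with DESeq2, 1840 with its size factors in edgeR and 1815 with averaged TMM factors. Hepatocyte scaling gave 1077 below 0, 1841 lost and 89 reversed, and no low-count filter 2567 below 0. Without the 6 stroma-free libraries 2266 were above and 1709 below 0 and 155 reversed, with averaged TMM factors 2127, 1914 and 168, and with hepatocyte scaling 6573 were below 0, 7219 lost and 88 reversed. The 18 libraries gave 2263 below 0 and 472 reversed. Replicates 1 to 3 alone gave 6212 above 0 and 1034 lost, replicates 4 to 6 gave 5946, 5796 lost and 3216 reversed, and replicates 7 to 9 gave 2018 above, 2224 below 0 and 28 reversed. The batch of 11 April gave 90 above, 546 below, 399 lost and 136 reversed, and that of 22 April 3, 1, 4 and 0. Sets summed to 1 sample gave 1 above, 4 below, 4 lost and 1 reversed, and with a set block 0 of each; with 3 samples a group the power is lower. A set block over all libraries gave 2296 above 0. Leaving out 3 replicates of a group at a time gave 806 to 3190 above, 1881 to 4905 below 0, 1687 to 3940 lost and 91 to 2436 reversed. The lowest counts below 0 and reversed came without resistant untreated replicates 1 to 3. The lowest counts above 0 and lost came without normal untreated replicates 4 to 6, and all the highest without normal insulin replicates 7 to 9. Drawing the line for loss at 0.25 or 0.75 of the response gave 2852 and 3072. The causes were not tested.

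With the replicate block the counts were 2008 above, 4487 below 0, 2757 lost and 1588 reversed, and no named gene changed its call. For insulin in insulin-resistant medium that block gave 2674 called genes and the set block 4481, against 0. Whether replicate numbers pair the samples cannot be told here, since stroma-free and FN1-high libraries come in runs of those numbers. Of 54 same-numbered pairs 30 correlated over 0.1 in their deviations (r from -0.82 to 0.74). The median r was 0.12 for them and -0.006 for pairs of other numbers.

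Differences called with 36 libraries or in the alternative turned sign for IGFBP1 (0.012), INSR (0.47) and FASN (0.0538) in replicates 7 to 9, RGCC (0.14) in replicates 1 to 3, INSR without the 6 libraries (0.38; averaged TMM factors 0.36) and IRS2 in the 18 libraries (-1.49) or without the 6 with hepatocyte scaling (-1.08). Differences called in neither also turned sign in LEAP2 (-0.13 and -0.04), PCK1 (-0.02), INSR (0.02 to 0.25) and IRS2 (-0.73 to -0.14). Without the 6 libraries 7 of 60 genes lost their call (IGFBP1, SREBF1, FASN, SULT1A3, CYP51A1, FOXA1 and RBP4) and 49 kept their side of the threshold, though values moved: ACSL1 was at -1.10 with 36 and -0.44 with 30 libraries, CCNB1IP1 at -0.89 and -0.41, MAB21L4 at 0.81 and 1.61, and SERPINA3 at 0.93 and 1.85. Genes named by class, apart from the reversals without that condition, were taken only if called alike in this 30-library fit. They could not lose the call, so the tally does not speak for other genes. Over all genes, 52.0% of lost and 53.2% of reversed responses were no longer called for the difference with 30 libraries.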
